A study of Mus musculus with 6 samples.

Results

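The arms of 3 related microRNA (miRNA) hairpins, miR-151, miR-28a and miR-708, were measured by small RNA sequencing in prefrontal cortex from aged mice of a postoperative neurocognitive disorder (PND) model and from control (CON) mice. Each hairpin gives a 5p arm and a 3p arm, so 6 of the 1189 entries listed for the series belong here, and all 6 had reads in all 6 libraries. They were taken by name as mmu-miR-151-5p, mmu-miR-151-3p, mmu-miR-28a-5p, mmu-miR-28a-3p, mmu-miR-708-5p and mmu-miR-708-3p, and the mouse prefix is left out from here on. miR-151-5p was chosen by its CPM in PND against CON mice, where its level was known to be higher in the PND group, so its PND and CON values are a description and were not tested. The other arm of its hairpin and the 4 arms of its relatives were included by kinship, and they were compared with their spread between mice. The question was whether the higher miR-151-5p extended to them.

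All mice were wild type male C57BL/6 mice, recorded as 18 months old, although the sample names carry 17M. The 3 mice of the PND group breathed 1.5% isoflurane for 30 min and then had an exploratory laparotomy of 30 min under the same anesthetic, followed by lidocaine cream and povidone iodine on the wound. The 3 mice of the CON group had none of these, so the effect of the anesthetic cannot be told apart from that of the operation. By the paper's methods, mice had fear conditioning with foot shocks, an open field test and, in the days after operation, a Barnes maze. All mice were anesthetized with isoflurane and perfused with saline after the maze, the last behavioral test, and each library came from the cortex of 1 mouse. Values are reads per 1000000 reads on all listed miRNAs (CPM), from 14849461 to 19471226 reads per library.

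A miRNA hairpin is cut from a longer transcript, and Dicer then releases a short duplex whose strands are the 5p and 3p arms. The strand loaded into Argonaute pairs with target mRNAs mainly through its seed, bases 2 to 8, so the arms of one hairpin have different targets although they are made in equal number. All 3 hairpins lie inside introns of protein-coding genes and are known to have descended from a common ancestor sequence of transposable elements. The miR-151 precursor is also a known substrate of adenosine-to-inosine editing in brain, and edited reads were not separated in the values used here.

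The positions of the hairpins are those of GENCODE M21 on GRCm38. Mir151 lies on chromosome 15 from 73254815 to 73254882 on the minus strand, in an intron of 14556 bp of Ptk2, the gene of focal adhesion kinase, which is on the same strand. An antisense gene, 1700085D07Rik, overlaps it on the plus strand. Mir28a lies on chromosome 16 from 24827855 to 24827940 on the plus strand, in an intron of 82814 bp of Lpp, which encodes a protein of focal adhesions and is on the same strand. Mir708 lies on chromosome 7 from 96249424 to 96249532 on the plus strand, in an intron of Tenm4, a teneurin gene of neural development that runs in the same direction. This intron was 143365 to 183862 bp long in the 4 coding transcripts that span the hairpin. None of the coding transcripts that span a hairpin had an exon there, and the nearest exon was 2152 bp away for Mir151, 17151 bp for Mir28a and 37434 bp for Mir708.

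The mature sequences show how close miR-28a and miR-708 are. The RefSeq table on GRCm38.p6 matched 4 of the 6 arms, given here 5′ to 3′ with the seed in capitals.
miR-28a-5p: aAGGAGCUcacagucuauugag
miR-708-5p: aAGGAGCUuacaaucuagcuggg
miR-28a-3p: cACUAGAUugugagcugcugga
miR-708-3p: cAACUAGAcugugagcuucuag
The 5p arms of miR-28a and miR-708 have the same seed and were identical at 16 of 22 positions. They differ, counted from 1 at the 5′ end with the base of miR-28a-5p first, by C9U, G13A, U18G, U19C, G20U and A21G. Each difference lies 3′ of the seed. Of the 1189 listed entries, 997 had a sequence in the table, and no other of these had this seed, or the seed of either 3p arm. The 3p arms share a run of 8 bases, UGUGAGCU, at positions 9 to 16 of miR-28a-3p and 10 to 17 of miR-708-3p, and their seeds are shifted against each other by 1 base. None of the other entries with a sequence contained one of these 4 sequences or was contained in one, and the remaining entries were not compared.

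The 6 arms spanned a wide range of levels. miR-151-3p was the most abundant, with a mean of 1399.7 CPM over the 6 mice, and ranked 58 of the 1189 entries. miR-708-5p followed with a mean of 439 CPM at rank 109, and miR-708-3p with 286 CPM at rank 130. miR-151-5p had a mean of 131 CPM at rank 176. The miR-28a arms were the lowest, with 20.5 CPM for miR-28a-3p at rank 301 and 15.0 CPM for miR-28a-5p at rank 319. This order was the same in 6 of 6 mice for each of the 5 neighboring pairs (exact permutation test with the arms exchanged within each mouse, two-sided, p = 0.03125 for every pair and 0.03125 after adjustment over the 5, the smallest p that 6 mice allow). The neighboring pairs were formed from the mean levels of the same 6 mice, so this test is not independent of the order. The closest neighbors were the arms of miR-28a, where the log2(CPM + 1) of the 3p arm exceeded that of the 5p arm by 0.43 ± 0.15 (SD, n = 6). A miRNA is counted once per read, so no scaling by length applies, but differences in ligation between sequences remain in these levels.

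**Figure D1:**
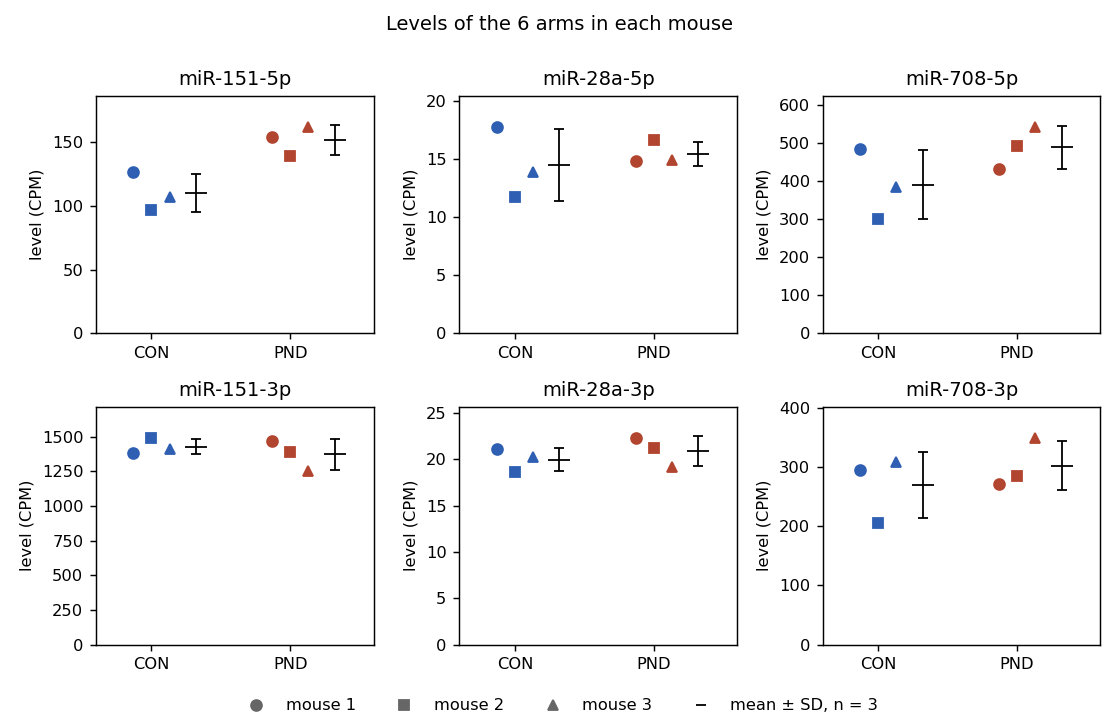
Level in CPM (vertical axis, from 0) of each arm in the 3 CON and 3 PND mice, with 1 symbol per mouse and the mean ± SD of the group beside them. miR-151-5p runs from 97.2 to 126 CPM in CON mice and from 139 to 162 CPM in PND mice, while the groups overlap for the other 5 arms.

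miR-151-5p had 154, 139 and 162 CPM in PND mice 1, 2 and 3 and 126, 97.2 and 107 CPM in CON mice 1, 2 and 3. Every PND mouse was above every CON mouse, and the closest values were PND mouse 2 and CON mouse 1. The group means were 152 ± 11.8 CPM (SD, n = 3) and 110.4 ± 14.9 CPM (SD, n = 3), a difference of 37.6% of the CON mean and a log2 fold change of 0.46 (standard error 0.14) on the log2(CPM + 1) scale. This is the difference for which the arm was chosen. Such a pattern, every PND mouse above every CON mouse, was found for 7.91% of the 1189 entries and for 8.59% of the 361 entries with a mean of at least 10 CPM, against 2.02% and 0.277% for the opposite pattern. Between 1443 and 2998 reads lay behind each value. The 95% exact Poisson interval was 134 to 145 CPM in PND mouse 2 and 121 to 132 CPM in CON mouse 1, and these intervals cover counting error only.

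The other arm of the same hairpin did not show the higher level. miR-151-3p had 1468, 1393 and 1254 CPM in PND mice 1, 2 and 3 and 1383, 1492 and 1409 CPM in CON mice 1, 2 and 3. The lowest value was that of PND mouse 3, which had the highest miR-151-5p, and the highest was that of CON mouse 2, which had the lowest miR-151-5p. The group means were 1371 ± 109 CPM (SD, n = 3) and 1428 ± 56.6 CPM (SD, n = 3), and the groups overlapped. The log2 fold change was -0.06 (standard error 0.10, 95% interval -0.29 to 0.17, limma p of 0.88 once adjusted over all entries by Benjamini-Hochberg). The exact permutation test of the means gave p = 0.5 (two-sided), where 3 mice against 3 cannot go below 0.1. Without PND mouse 3 the log2 fold change was 0.0026. With between 21132 and 28582 reads per library this arm was the most deeply read of the 6, and the spread between mice, not counting error, set its precision.

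The sum of both miR-151 arms, which follows the 3p arm, averaged 1523 ± 103 CPM over the PND mice and 1538 ± 43.8 CPM over the CON mice (SD, n = 3 each).

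The relatives were tested in the same fit. miR-708-5p had 431, 491 and 543 CPM in PND mice 1, 2 and 3 and 483, 301 and 385 CPM in CON mice 1, 2 and 3. CON mouse 1 lay within the PND values, and CON mouse 2 was far below all other mice. The group means were 488 ± 56.0 CPM (SD, n = 3) and 390.0 ± 91.0 CPM (SD, n = 3). The log2 fold change was 0.34 (standard error 0.18, 95% interval -0.08 to 0.77, adjusted p = 0.77 from limma). For the means a two-sided exact permutation test gave p = 0.2. It cannot go below 0.1 with 3 mice against 3, so it cannot show that the means are equal. The log2 fold change was 0.17 without CON mouse 2 and 0.51 without CON mouse 1, where limma gave an unadjusted p of 0.0233 and an adjusted p of 0.57. The lowest and highest adjusted p over all alternatives were 0.57 and 1.

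miR-708-3p had 271, 286 and 349.6 CPM in PND mice 1, 2 and 3 and 295, 206 and 309 CPM in CON mice 1, 2 and 3. The groups overlapped, with CON mouse 2 again the lowest and PND mouse 3 again the highest. The log2 fold change was 0.17 (standard error 0.18, 95% interval -0.25 to 0.60, adjusted p = 0.77 from limma, exact permutation p = 0.6, two-sided). Without CON mouse 2 it was -0.0085, so its sign rested on that mouse. The sum of both miR-708 arms ran from 702 to 893 CPM in PND mice and from 508 to 779 CPM in CON mice.

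miR-28a-5p had 14.8, 16.6 and 14.9 CPM in PND mice 1, 2 and 3 and 17.8, 11.7 and 13.9 CPM in CON mice 1, 2 and 3. The highest and the lowest value were both those of CON mice. On the log2 scale the PND group was higher by 0.11 (standard error 0.18, 95% interval -0.31 to 0.52, adjusted p = 0.89 from limma, exact permutation p = 0.7, two-sided). With 174 to 293 reads per library it was the arm with the fewest reads. The spread of 1.02 CPM (SD, n = 3) in the PND group was close to the 0.921 CPM that counting alone gives at this depth, whereas the spread of 3.08 CPM (SD, n = 3) in the CON group was above the 0.970 CPM of counting.

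miR-28a-3p had 22.3, 21.2 and 19.2 CPM in PND mice 1, 2 and 3 and 21.1, 18.7 and 20.3 CPM in CON mice 1, 2 and 3. The values of both groups were interleaved. The log2 fold change was 0.06 (standard error 0.14, 95% interval -0.25 to 0.38, adjusted p = 0.93 from limma, exact permutation p = 0.4, two-sided). The intervals of these 4 relatives and of miR-151-3p exclude a doubling, and those of miR-28a-5p and both miR-708 arms still include the size seen for miR-151-5p.

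Of the 5 arms other than miR-151-5p, 0 had an unadjusted p under 0.05 in limma, against 5.13% of all entries (4.04% higher in PND and 1.09% lower) and 2.49% of those with a mean of at least 10 CPM (2.49% higher and 0.0% lower), and 0 had an adjusted p under 0.05, against 0.421% and 0.0%. On the recovered reads, 0 of the 5 had an unadjusted p under 0.05 in the quasi-likelihood and exact tests of edgeR and in DESeq2. These tests gave 50, 41 and 28 of the 1189 entries at that threshold, in the same order, so few of any 5 entries would be called. The log2 fold change was above 0 for 4 of these 5 arms. This direction was common, since 65.3% of all entries and 79.2% of the entries with a mean of at least 10 CPM were above 0 as well, and the median log2 fold change of the latter was 0.14. Scaling by TMM factors moved this median to 0.02. On that scale miR-151-5p had a log2 fold change of 0.34, miR-708-5p of 0.22 and miR-708-3p of 0.05, whereas miR-151-3p had -0.18 and both miR-28a arms turned below 0, with -0.01 for the 5p arm and -0.05 for the 3p arm. miR-151-5p remained without overlap between the groups under TMM factors (131 to 154 against 108 to 123), DESeq2 size factors, and a library total without miR-128-3p (172 to 201 against 137 to 164). As miR-151-5p was chosen by this difference, this is a description. The share of all entries without overlap was not computed on these scales.

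**Figure D2:**
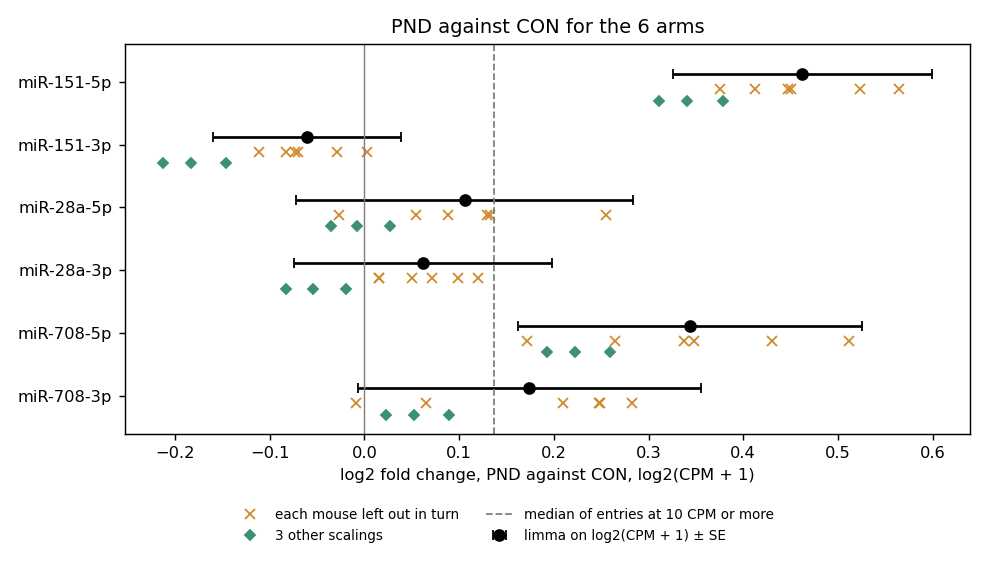
Log2 fold change of PND against CON (horizontal axis, log2(CPM + 1) scale) for each arm. The circle with its bar is limma's estimate ± standard error, the crosses leave out 1 mouse each, the diamonds use TMM factors, DESeq2 size factors or a total without miR-128-3p, and the dashed line is the median of the 361 entries with at least 10 CPM, 0.14. All estimates of miR-151-5p lie between 0.31 and 0.56, and those of the miR-28a arms lie on both sides of 0.

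The most abundant miRNA of the libraries, the neuronal miR-128-3p, had its extremes in CON mouse 2 and PND mouse 3, opposite to several of these arms. As part of the library total, miR-128-3p enters the scaling of every CPM value. It took 23.2%, 19.0% and 17.6% of the reads in PND mice 1, 2 and 3 and 22.7%, 29.2% and 21.6% in CON mice 1, 2 and 3. CON mouse 2 had the highest miR-128-3p and the highest miR-151-3p, and the lowest level of the other 5 arms. PND mouse 3 had the lowest miR-128-3p and miR-151-3p, and the highest miR-151-5p, miR-708-5p and miR-708-3p. With miR-128-3p left out of the total, the log2 fold change was 0.38 for miR-151-5p, -0.15 for miR-151-3p and 0.26 for miR-708-5p.

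The ratio of the 2 arms within a library does not depend on the library total. miR-151 was strongly biased to its 3p arm, with 9.53, 10.01 and 7.72 reads of the 3p arm for each read of the 5p arm in PND mice 1, 2 and 3 and 10.9, 15.3 and 13.1 in CON mice 1, 2 and 3. PND mouse 3 had the lowest ratio and CON mouse 2 the highest, and every PND mouse was below every CON mouse. The 5p arm made up 10.02% ± 1.28 of the miR-151 reads in the PND group and 7.19% ± 1.13 in the CON group (SD, n = 3 each). As this ratio contains miR-151-5p, its difference between the groups is a description. miR-28a was biased to its 3p arm more weakly, with 1.51, 1.28 and 1.29 reads of the 3p arm per 5p read in PND mice 1, 2 and 3 and 1.18, 1.59 and 1.46 in CON mice 1, 2 and 3. miR-708 was biased to its 5p arm, with 1.59, 1.72 and 1.55 reads of the 5p arm per 3p read in PND mice 1, 2 and 3 and 1.64, 1.46 and 1.25 in CON mice 1, 2 and 3. For both hairpins the groups overlapped.

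Over all 6 mice the log2 ratio of 5p to 3p reads was -3.44 ± 0.35 (SD, n = 6) for miR-151, -0.46 ± 0.16 (SD, n = 6) for miR-28a and 0.61 ± 0.16 (SD, n = 6) for miR-708. Each had the same sign in 6 of 6 mice (exact permutation test with the arms exchanged within each mouse, two-sided, p = 0.03125 for each hairpin and after adjustment over the 3). Thus the hairpins with the same 5p seed, miR-28a and miR-708, were read mainly from opposite arms. Between PND and CON the log2 ratio differed by 0.05 for miR-28a (exact permutation test, two-sided, p = 0.9) and by 0.17 for miR-708 (p = 0.3 in the same exact test). The groups overlapped for both, and this test cannot go below 0.1 with 3 mice against 3.

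**Figure D3:**
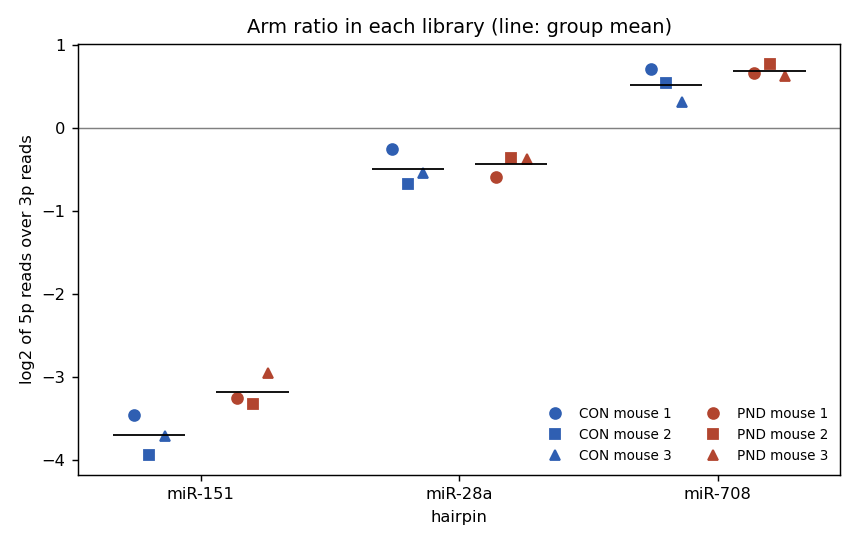
Log2 of 5p reads over 3p reads (vertical axis) in each library, with CON mice in blue, PND mice in red and a line at each group mean. The miR-151 values lie between -3.94 and -2.95 and the groups do not overlap, while the groups overlap for miR-28a, below 0, and for miR-708, above 0.

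The gap between the arms of miR-151 was set beside that of the other hairpins. Both arms had a mean of at least 10 CPM for 86 hairpins, and the log2 fold change of the 5p arm was above that of the 3p arm for 52.3% of them. The median absolute difference between the log2 fold changes of the arms was 0.14. It was 0.52 for miR-151, the third largest of the 86, which is a description because the gap contains the log2 fold change for which miR-151-5p was chosen. It was 0.17 for miR-708, at rank 40, and 0.04 for miR-28a, at rank 75. The 2 larger gaps were those of miR-30e, with 0.76 for the 5p arm and 0.04 for the 3p arm, and of miR-671, with 0.34 and -0.19. The ratio of 5p to 3p reads was higher in every PND mouse than in every CON mouse for 3.49% of the hairpins, namely miR-151, miR-671 and miR-124, and lower for 5.81%. The arms had log2 fold changes of the same sign in 62 of the 86 hairpins, miR-28a and miR-708 among them.

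**Figure D4:**
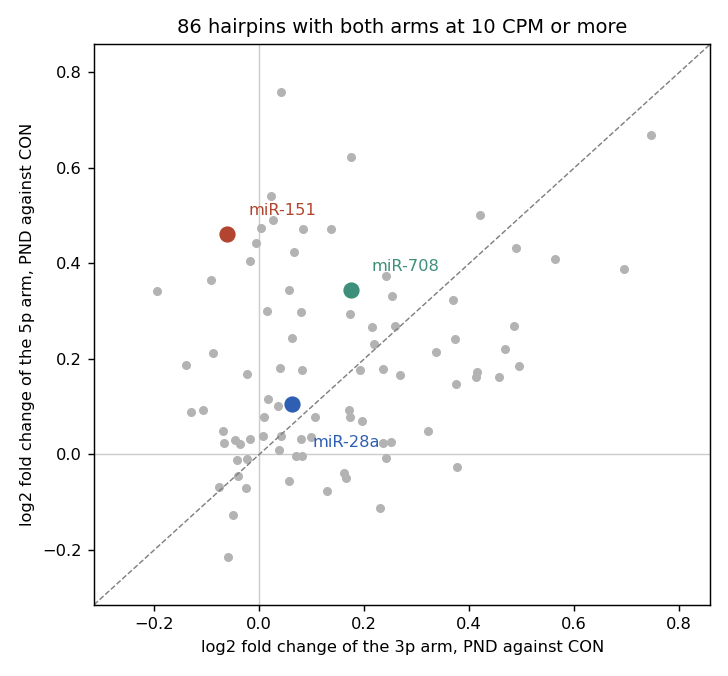
Log2 fold change of the 5p arm (vertical axis) against that of the 3p arm (horizontal axis), PND against CON, for the 86 hairpins with both arms at a mean of at least 10 CPM, with equal change on the dashed line. miR-151 lies at 0.46 for the 5p arm and -0.06 for the 3p arm, above most hairpins with a similar 3p value, and miR-708 and miR-28a lie closer to the line.

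The seed that miR-28a-5p and miR-708-5p share was carried almost wholly by miR-708-5p. There were 29.0, 29.5 and 36.4 reads of miR-708-5p for each read of miR-28a-5p in PND mice 1, 2 and 3 and 27.1, 25.7 and 27.7 in CON mice 1, 2 and 3. Every PND mouse had a higher ratio than every CON mouse, with PND mouse 3 apart from the rest (p = 0.1 in a two-sided exact permutation test, which cannot go lower with 3 mice against 3). The closest were PND mouse 1 and CON mouse 3, whose ratios rest on only 289 and 224 reads of miR-28a-5p. The counting error of these ratios and the share of other arm pairs with such a pattern were not computed. Together the 2 arms reached 504 ± 56.1 CPM in PND mice and 404 ± 94.0 CPM in CON mice (SD, n = 3 each), with overlapping groups. miR-28a-5p made up 3.09% ± 0.366 of this sum in the PND group and 3.59% ± 0.132 in the CON group (SD, n = 3 each).

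Correlations of 4 pairs of relatives across the 6 mice reached no adjusted p under 0.05. The 2 mice farthest from the median of the first arm of each pair, always including CON mouse 2, were left out as a check. This narrows the range and leaves 4 mice, and CON mouse 2 was not left out alone. Of 4 pairs examined on the log2(CPM + 1) scale, miR-28a-5p and miR-708-5p had a Pearson r of 0.83 (exact permutation p = 0.0444, adjusted p = 0.0889 over the 4) and a Spearman rho of 0.77 (exact permutation p = 0.103, adjusted p = 0.411). Without CON mice 1 and 2, the mice farthest from the median of miR-28a-5p, r was 0.59. The arms of miR-708 had an r of 0.85 (exact permutation p = 0.0417, adjusted p = 0.0889) and a rho of 0.60 (exact permutation p = 0.242, adjusted p = 0.474). Without CON mouse 2 and PND mouse 3, r was -0.38 over the 4 mice left, so the positive r depended on including those mice. The arms of miR-28a had an r of 0.65 (exact permutation p = 0.16, adjusted p = 0.213) and a rho of 0.49 (exact permutation p = 0.356, adjusted p = 0.474), with an r of 0.28 without CON mice 1 and 2. The 3p arms of miR-28a and miR-708 had an r of 0.21 (exact permutation p = 0.724) and a rho of -0.14 (exact permutation p = 0.803), with the same values after adjustment, and an r of -0.99 over the 4 mice left without CON mouse 2 and PND mouse 1.

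The profile of miR-151-5p over the 6 libraries was then compared with the other 360 entries with a mean of at least 10 CPM, by Pearson correlation of log2(CPM + 1), as a description of libraries that share their totals. The most similar entries were miR-377-5p (0.96), miR-671-5p (0.96), miR-185-5p (0.95), miR-134-5p (0.94) and miR-107-3p (0.91). miR-708-5p was the most similar relative, at rank 24 with 0.85, followed by miR-708-3p at rank 166, miR-28a-5p at rank 196 and miR-28a-3p at rank 223. miR-151-3p, from the same hairpin, was among the least similar, at rank 350 with -0.59.

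A list of other intronic miRNAs gave the background for miRNAs of host genes. Of its 39 arms, 38 were listed in the files. An unadjusted p under 0.05 was found in limma for 2 of the 38, both higher in PND, for 0 lower in PND, and an adjusted p under 0.05 for 0. Over all 1189 entries these shares were 4.04%, 1.09% and 0.421%, in the same order. The median log2 fold change of the list was 0.14, the same as that of all entries with at least 10 CPM. The lowest p-values belonged to miR-33-5p and miR-33-3p, which are hosted by the sterol regulator gene Srebf2, with log2 fold changes of 0.68 (standard error 0.26) and 0.71 (standard error 0.27), and to miR-107-3p, hosted by the pantothenate kinase gene Pank1, with 0.34 (standard error 0.15). Both miR-33 arms were low, with 1.68 to 5.98 CPM for miR-33-5p and 0.606 to 3.78 CPM for miR-33-3p.

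As a check of the tissue, the neuronal miRNAs miR-124-3p, miR-9-5p, miR-9-3p, miR-128-3p and miR-138-5p summed to 284580 to 318780 CPM in PND mice and to 310610 to 374870 CPM in CON mice. Most of this sum was miR-128-3p, with a log2 fold change of -0.29, while the other 4 arms had log2 fold changes of 0.09 to 0.32 and the groups overlapped for each of the 5. The 2 endothelial arms of miR-126a summed to 13326 to 13992 against 11991 to 14372 CPM, the 3 oligodendrocyte arms to 1575 to 1765 against 1384 to 1607 CPM, and the 2 choroid plexus miRNAs to 764 to 795 against 585 to 926 CPM. The 3 myeloid arms summed to 11.5 to 21.4 against 7.41 to 15.8 CPM, the 4 arms of red blood cells to 47.1 to 101.1 against 31.9 to 54.7 CPM, the liver miRNA miR-122-5p reached 11.5 to 14.1 against 11.1 to 14.0 CPM, and the 3 muscle miRNAs 502 to 601 against 413 to 593 CPM. PND mouse 1 stood apart among the red blood cell arms, with 40.9 CPM of miR-451a against 0.62 to 3.08 CPM in the other 5 mice. CON mouse 1 stood apart with 1323 CPM of the 6 epithelial or olfactory arms, against 85.8 to 90.8 CPM in PND mice and 49.4 CPM in the lowest CON mouse. Of the markers, 1 had an unadjusted p under 0.05 in limma, the myeloid miR-142a-5p, which was higher in PND (adjusted p = 0.77 from limma). At this threshold 4.04% of all entries were higher in PND, and miR-142a-5p had only 0.741 to 2.43 CPM. The other myeloid arms differed in direction, with log2 fold changes of -0.23 for miR-223-3p and 0.44 for miR-142a-3p, and the groups overlapped for both. None of the markers of any list was at 0 in all 6 libraries. The part of the cell composition of the samples in the levels of the 6 arms was not tested, and fewer cells of a type cannot be told apart from less RNA per cell. Without CON mouse 1 the log2 fold change of miR-151-5p was 0.56 and that of miR-151-3p was -0.08, and without PND mouse 1 they were 0.45 and -0.11.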

How the data were processed

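Small RNA libraries of 3 PND and 3 CON mice (prefrontal cortex) were used, grouped and numbered by the sample names. Reads were cleaned by the authors with fastx, mapped with Bowtie (0.12.2 in the submitters' processing notes, which also name mm8 and mm9), assigned to miRNAs by miRBase position, and scaled by TMM and by total reads according to the paper. The deposited values are CPM, which the paper calls TPM, and each column sums to 1000000 within rounding. The miRBase release, the mismatches allowed and the handling of reads with several matches are not given in the sources used here, so related arms could exchange reads. The labels name a total RNA kit, and the paper's methods a small RNA kit.

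Dividing by the value of 1 read gave whole numbers within 0.05 read for 100% of values in each library, and these reads were used for depth, arm ratios and count tests. No 2 libraries of a group were copies (chi-square divided by its degrees of freedom, at least 120). PND and CON were compared with limma 3.58.1 (lmFit, eBayes with trend) in R 4.3.3, fitted to all 1189 entries as log2(CPM + 1), with Benjamini-Hochberg adjustment over all of them. Count tests need whole reads and were alternatives only: the quasi-likelihood and exact tests of edgeR 4.0.16 and DESeq2 1.42.0, giving 28, 24 and 20 entries higher in PND at an unadjusted p under 0.05, against 48 with limma. Single values used exact permutation tests over mice. Arm ratios used reads with 0.5 added. The fits were tested on simulated data with changes larger than those described here, so that test does not cover changes of this size. Positions are from GENCODE M21 (GRCm38) and sequences from RefSeq (GRCm38.p6). No coordinates were converted between builds.

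Named were the 6 members, entries sharing a seed or sequence with one, the 5 entries most correlated with miR-151-5p, the 3 hairpins with the largest gap between arms, the 3 intronic miRNAs with the lowest p, and fixed marker lists. The hairpins with arm ratios that do not overlap between the groups were named after their values were seen. The members and all lists were chosen with earlier results of these data known. Same-numbered mice had correlations of their deviations from the group means of -0.13, 0.12 and 0.51, so the numbers were not taken as pairs.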

Additional observations from a re-analysis of the deposited data

How the results depend on the processing

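In 18 alternatives each, miR-151-5p and miR-708-5p kept a positive log2 fold change. For miR-151-5p this is a description, as it was chosen by this difference. Some of the alternatives cannot change these estimates. They are limma without trend, the replicate block, and fits of only the entries with at least 10 CPM or at least 10 reads in 3 libraries. None of the 5 arms other than miR-151-5p had an adjusted p under 0.05 in any alternative. Among all entries fitted, only 0 to 5 had one in each alternative, so this says little about 5 arms. With 1 mouse left out in turn the log2 fold change lay between 0.38 and 0.56 for miR-151-5p, 0.17 and 0.51 for miR-708-5p, -0.0085 and 0.28 for miR-708-3p, -0.027 and 0.26 for miR-28a-5p, 0.01 and 0.12 for miR-28a-3p, and -0.11 and 0.0026 for miR-151-3p. The sign turned without CON mouse 2 for miR-28a-5p (-0.027) and miR-708-3p (-0.0085), and without PND mouse 3 for miR-151-3p (0.0026). With TMM factors, DESeq2 size factors, edgeR's quasi-likelihood test, edgeR's exact test and DESeq2 it also turned for miR-28a-5p (-0.0080, -0.036, -0.015, -0.016 and -0.043) and for miR-28a-3p (-0.055, -0.083, -0.052, -0.052 and -0.081), and for the latter with a total without miR-128-3p (-0.020). The cause was not tested.

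The log2 arm ratio stayed between -3.54 and -3.34 for miR-151, -0.50 and -0.42 for miR-28a, and 0.58 and 0.67 for miR-708 with 1 mouse left out, where 5 mice allow no p below 0.0625. For the 4 arms with a sequence, none of the other entries with one held or was held in it, so no reads of such entries could be added, and the miR-151 arms were not compared. The number of entries higher in PND at an unadjusted p under 0.05 was 48, 5 of the 361 with at least 10 CPM when these alone were fitted, 28 with edgeR's quasi-likelihood test, and 19 to 75 with 1 mouse left out (73 without PND mouse 1, 19 without PND mouse 2, 75 without CON mouse 1 and 23 without CON mouse 2). With the replicate number as a block it was 45. As each number occurs in both groups, the block cannot change the log2 fold changes (0.46 for miR-151-5p, standard error 0.14). With the block limma gave an adjusted p of 0.75 for miR-708-5p, and no call changed among the 5 arms other than miR-151-5p. Of the 6 libraries, 3 correlated best with a library of their own number. Reads limit miR-28a-5p, at 174 in CON mouse 2.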
